A study of Arabidopsis thaliana with 12 samples.

Results

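CHLM, AT1G74470, Z-ISO and CHL are 4 nuclear genes of Arabidopsis thaliana whose proteins work in the chloroplast, on chlorophyll, on carotenoids and in photoprotection. They were taken as the features that the platform's gene annotation assigns to 1 of these genes alone, which gave 4 features of the 692 with a single gene, in a table of 3439 features in all. Each gene had 1 such feature, and 0 features shared with other genes named any of them. The genes were chosen by their intensities in these same psbs and WT samples, with earlier results of that comparison known. Their values in it are therefore a description, without a test.

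Total RNA of 6 psbs samples and 6 WT samples had been hybridized to an array. Both groups are of the Columbia 0 ecotype, and the psbs mutant lacks PSII-S, also called PsbS, a protein of photosystem II that the labels place in photosystem I. The labels give no tissue, age, light regime, batch or source of the replicates. Nothing says that replicates came from separate plants, so errors and p-values here cover the spread between samples alone, which may be technical. The question behind the comparison is how transcript levels change with the loss of PsbS. No feature of a single gene names PSBS, so the genotype labels could not be checked on its transcript.

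PsbS sits in the thylakoid membrane and is needed for the fast switch by which leaves give off excess absorbed light as heat. Chlorophyll is built from protoporphyrin IX: CHLM, the magnesium-protoporphyrin IX methyltransferase, adds a methyl group to the magnesium-loaded ring early in the chlorophyll branch. Geranylgeranyl reductase, the product of AT1G74470, saturates the geranylgeranyl chain to the phytyl tail that anchors chlorophyll and that is also used for tocopherol. Z-ISO, the 15-cis-zeta-carotene isomerase, acts in the desaturation steps that lead to lycopene, from which the xanthophylls of heat dissipation are made. CHL is the chloroplastic lipocalin, a small-molecule binding protein of the thylakoid lumen known for limiting lipid damage and for a slow, sustained form of heat dissipation that does not need PsbS.

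The values are deposited intensities in arbitrary units between 0 and 100, and the groups differed in their whole distribution. The median over all features was 0.0317 ± 0.00613 in psbs samples and 0.339 ± 0.0334 in WT samples (SD, n = 6 each). Between 27.0% and 34.9% of features were listed at exactly 0 in psbs samples, against 13.0% to 13.7% in WT samples. The 95th percentile of intensity was much closer, at 1.54 to 1.83 in psbs samples and 2.04 to 2.45 in WT samples. Levels are therefore given in 2 ways: as deposited, and as the share of all features that had a lower intensity in the same sample, called the rank below. By this rule a feature at 0 has a rank of 0%, however many others are also at 0. psbs replicates 1 and 2 stood apart: their scaled log2 values correlated at 0.881 with each other across features and at 0.762 to 0.781 with psbs replicates 3 to 6, which correlated at 0.869 to 0.885 among themselves. A lower level in RNA of whole samples does not tell fewer cells of a type from less RNA per cell.

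The 4 genes showed 4 different patterns. CHLM was dimmer in every psbs sample than in any WT sample as deposited, yet stood higher in rank. AT1G74470 had nearly the same intensity and rank in both groups. Z-ISO was near or at 0 in psbs samples and well above it in WT samples. CHL was listed at 0 in all 6 psbs samples and above 0 in all 6 WT samples. In 3 of the 4 genes the groups did not overlap in deposited intensity, which was also so for 73.1% of the 3359 features above 0 in at least 1 sample. All 3 were lower in psbs, and 67.3% of the 3359 features were likewise lower without overlap. By place within the sample, 1 of the 4 genes was higher in psbs without overlap, as were 17.6% of features, and 2 were lower, as were 22.8% of features. These shares are the background of the array, and nothing is read from the members' count against them. For CHL the lack of overlap in rank rests on features tied at 0 taking a rank of 0%. In psbs samples 27.0% to 34.9% of features were tied at 0, while the WT ranks of CHL began at 27.7%.

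**Figure D1:**
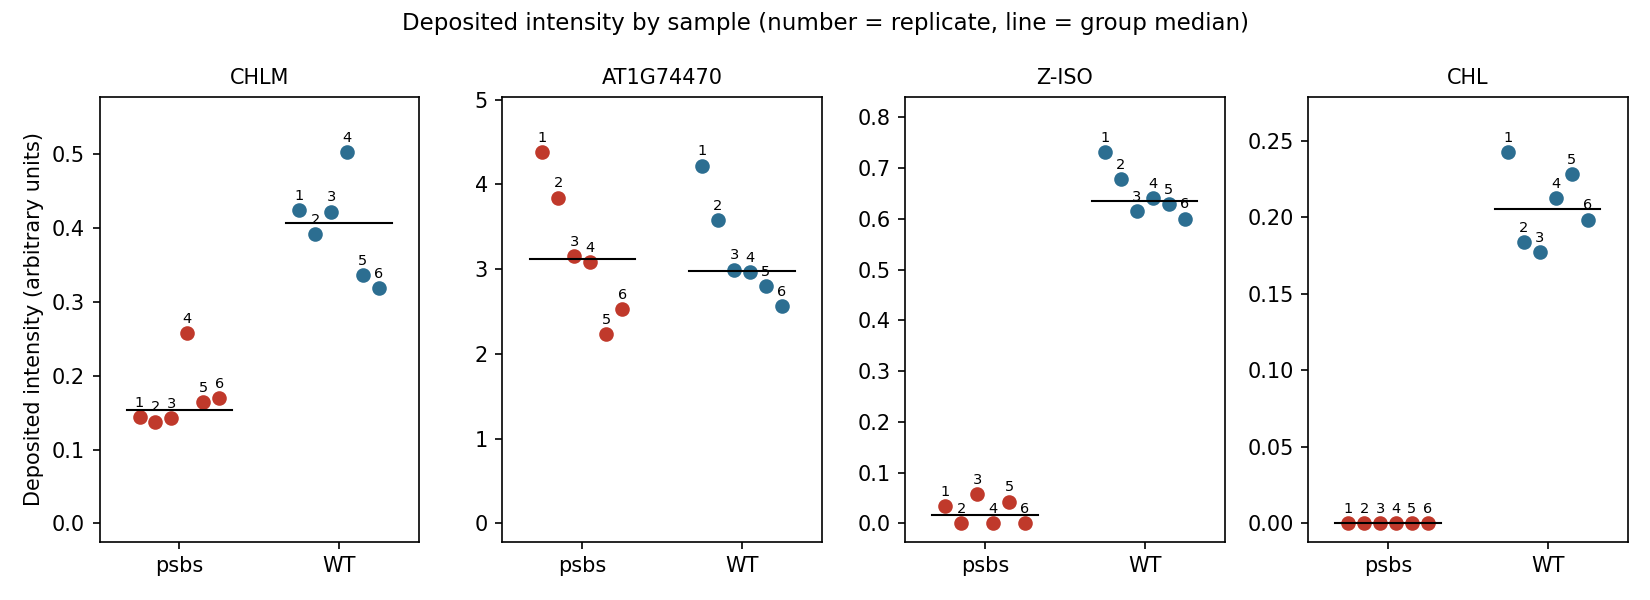
Deposited intensity (arbitrary units, linear axes that differ between panels) of the 4 genes in each of the 6 psbs and 6 WT samples. Points are samples numbered by replicate and lines are group medians: CHLM lies at 0.138 to 0.257 in psbs and 0.318 to 0.503 in WT, AT1G74470 overlaps between groups, and CHL is at 0 in all psbs samples.

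In the chlorophyll branch, CHLM had intensities of 0.144, 0.138, 0.143, 0.257, 0.164 and 0.170 in psbs replicates 1 to 6, against 0.424, 0.391, 0.422, 0.503, 0.336 and 0.318 in WT replicates 1 to 6. The highest psbs value was below the lowest WT value, and replicate 4 was the highest sample of each group. The means were 0.169 ± 0.0451 in psbs samples and 0.399 ± 0.0670 in WT samples (SD, n = 6 each), 2.36-fold lower in psbs. Between samples of the same number the psbs intensity was 0.338 to 0.533 of the WT intensity. The rank ran the other way. From 77.0% to 83.8% of features were dimmer than CHLM in a psbs sample, with a mean of 79.2% ± 2.56, against 51.3% to 65.7% in a WT sample, with a mean of 56.0% ± 5.53 (SD, n = 6 each). The ranks of the groups did not overlap either. A lower intensity together with a higher rank, both without overlap, was seen for 158 of the 3359 features (4.7%), and CHLM was 1 of them.

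AT1G74470, for geranylgeranyl reductase, had intensities of 4.38, 3.84, 3.15, 3.08, 2.23 and 2.53 in psbs replicates 1 to 6, against 4.22, 3.58, 2.99, 2.96, 2.79 and 2.56 in WT replicates 1 to 6. The groups overlapped over nearly their whole range. In both groups replicates 1 and 2 were the brightest and replicates 5 and 6 the dimmest. The ratio of psbs to WT between samples of the same number lay between 0.798 and 1.07. The means were 3.20 ± 0.801 in psbs samples and 3.19 ± 0.610 in WT samples (SD, n = 6 each), a ratio of 1.01. From 96.1% to 97.3% of features were dimmer than AT1G74470 in psbs samples, against 96.3% to 97.2% in WT samples. It therefore stood just above the 95th percentile of intensity in all 12 samples, a level at which the groups were closer than at the median.

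psbs replicates 1 and 2 raised the psbs mean of AT1G74470. They averaged 4.11, while psbs replicates 3 to 6 averaged 2.75 ± 0.445 (SD, n = 4). WT replicates 1 and 2 were higher than the rest as well, with 3.90, against 2.83 in WT replicates 3 to 6. The sample medians over all features moved in opposite directions in the groups: they were 0.0244 and 0.0233 in psbs replicates 1 and 2, below the 0.0350 to 0.0361 of the other psbs samples, and 0.379 in both WT replicates 1 and 2, above the 0.304 to 0.336 of the other WT samples. Their part in the spread of AT1G74470 was not tested.

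Z-ISO, the carotenoid gene, had intensities of 0.0337, 0, 0.0574, 0, 0.0426 and 0 in psbs replicates 1 to 6, against 0.731, 0.678, 0.615, 0.640, 0.629 and 0.600 in WT replicates 1 to 6. All psbs samples lay below all WT samples. The WT values were tight, with a mean of 0.649 ± 0.0483 (SD, n = 6) and the highest 1.22 times the lowest. In psbs, replicates 1, 3 and 5 had a signal and replicates 2, 4 and 6 were listed at 0. Since what a 0 stands for is not given in the sources used here, no psbs mean or fold is given for Z-ISO.

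The rank of Z-ISO divided the psbs samples in the same way. It was brighter than 55.3%, 60.9% and 53.8% of features in psbs replicates 1, 3 and 5, so its low intensity there was still above the sample's median. In WT samples it was brighter than 71.7% to 76.9% of features. Of the 2908 features above 0 in all 6 WT samples, 235 (8.08%) were, like Z-ISO, listed at 0 in exactly 3 psbs samples. The alternation by replicate number was not common to the array: 9 of these 235 features had the pattern of Z-ISO and 11 the opposite one, against a median of 10 over the 20 possible patterns and a highest count of 25, for 0 in psbs replicates 1, 2 and 4.

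CHL, the chloroplastic lipocalin, was listed at 0 in each of psbs replicates 1 to 6, against 0.243, 0.184, 0.177, 0.212, 0.228 and 0.198 in WT replicates 1 to 6. The WT mean was 0.207 ± 0.0254 (SD, n = 6). It was brighter than 27.7% to 39.4% of features in WT samples, below the median of each of them. No fold is given against a group listed at 0. Of the 2908 features above 0 in all WT samples, 149 (5.12%) were at 0 in all 6 psbs samples, among them 32 of 584 with a single gene (5.48%). CHL was on the dim side of these 149, of which 32.2% had a lower WT mean, with a median WT mean of 0.288 and a highest of 2.30.

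**Figure D2:**
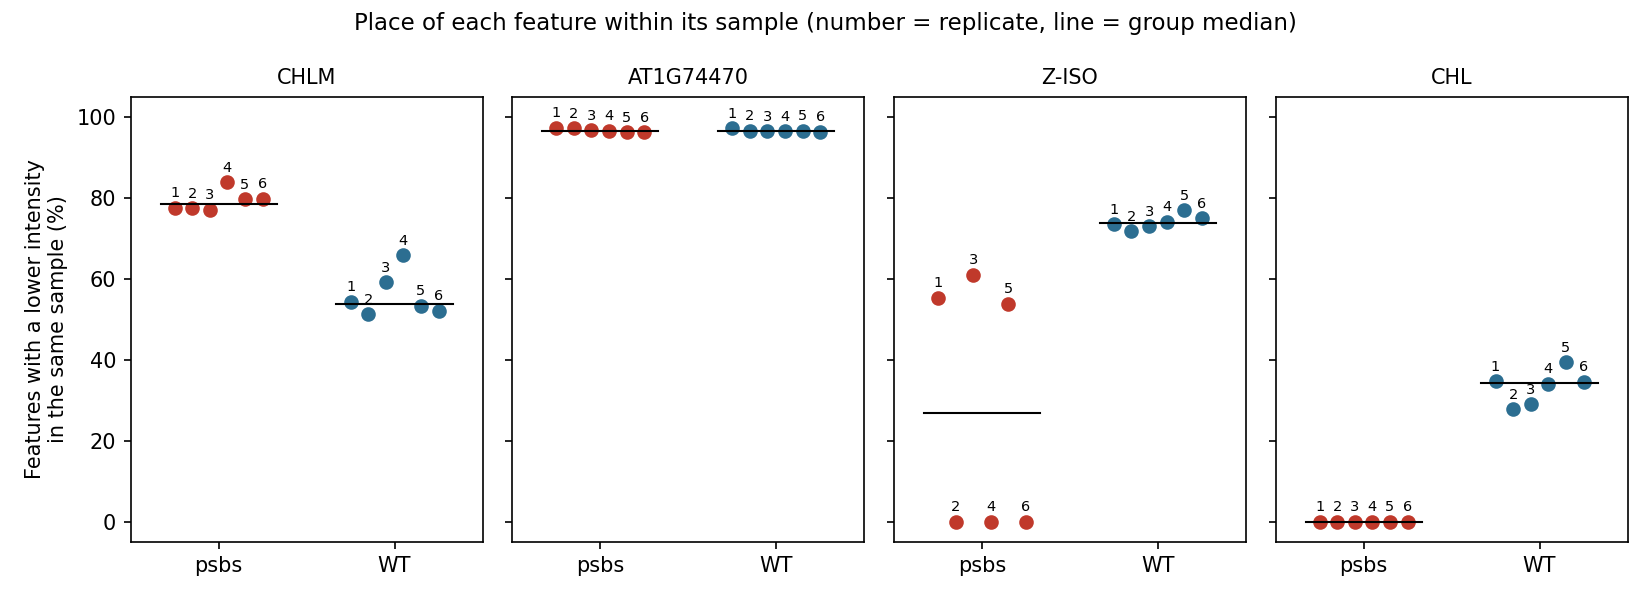
Percent of all 3439 features with a lower intensity in the same sample, for the 4 genes in each of the 6 psbs and 6 WT samples (points numbered by replicate, lines are group medians). CHLM lies at 77.0% to 83.8% in psbs and 51.3% to 65.7% in WT, AT1G74470 above 96% in both groups, and Z-ISO splits in psbs into 3 samples above 53% and 3 at 0.

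**Figure D3:**
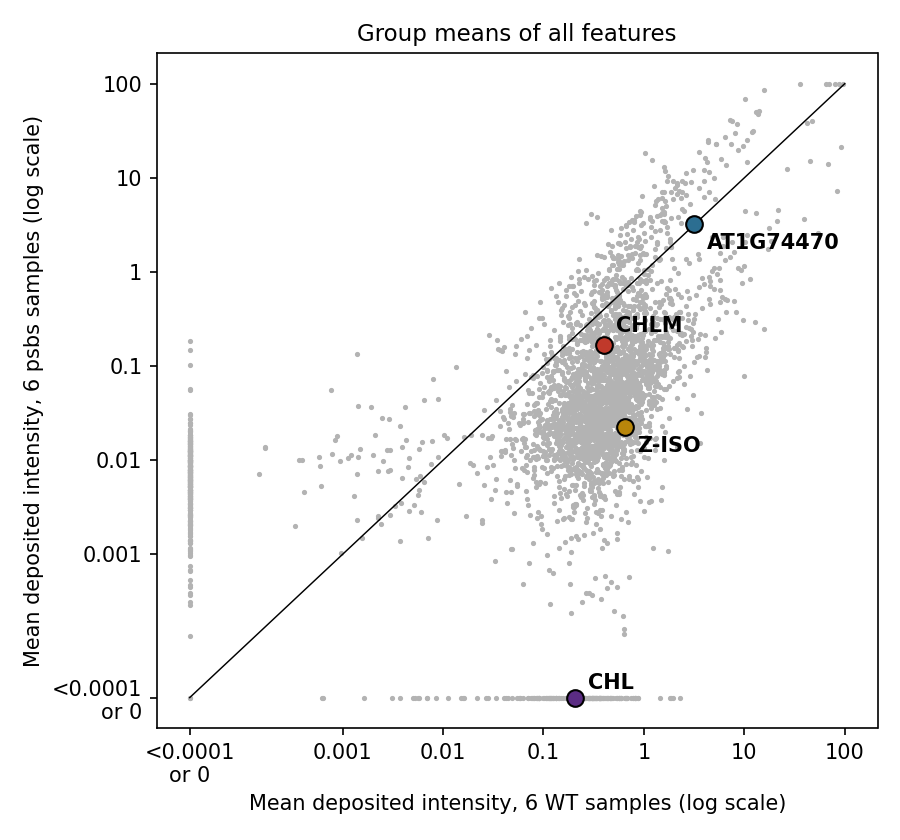
Mean deposited intensity of each feature in the 6 psbs samples (vertical, log scale) against the 6 WT samples (horizontal, log scale), with means of 0 or under 0.0001 drawn at the lower end and the line of equal means. AT1G74470 lies on that line, CHLM and Z-ISO below it and CHL at a psbs mean of 0.

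Because the groups differ in overall brightness, a difference between them depends on how samples are brought to 1 scale. Differences below are of log2 values, psbs minus WT, after values under a low floor were raised to it, and the SE is that of a limma fit over all 3359 features. The median difference of all features was -2.86 as deposited and 0.05 after quantile scaling, which gives samples the same distribution apart from values kept at 0. It was -0.98 when samples were centred on the median of the 1407 features above 0 in all samples, 0.15 when centred on the median of all features, and -0.02 after cyclic loess.

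CHLM had a difference of -1.26 ± 0.17 (SE) as deposited and of 1.10 ± 0.13 after quantile scaling. It was 0.72 ± 0.15 and 2.18 ± 0.17 under the centrings on common and on all features, and 1.30 ± 0.16 after loess. The sign was therefore negative as deposited and positive under the 4 scalings that changed the values. Relative to the array its place was steadier: CHLM exceeded the difference of 70.0% of features as deposited and of 80.7% to 83.1% under the other 4.

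For AT1G74470 the difference was -0.01 ± 0.18 (SE) as deposited and 0.06 ± 0.14 after quantile scaling. It was 1.97 ± 0.17 and 3.43 ± 0.26 under the centrings on common and on all features, and -0.76 ± 0.18 after loess. Its place among all features moved with the scaling too, from above 24.6% of features after loess and 50.2% after quantile scaling to above 80.1% as deposited and 91.0% after centring on all features. No direction is given for this gene.

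Z-ISO and CHL were lower in psbs under all 5 treatments of the values. For CHL, at 0 in all psbs samples, a higher psbs value was possible only after loess. The other treatments keep 0 at 0, so their shared sign says nothing about its stability. Their psbs samples at 0 take the value of the floor, which loess then adjusts further. The size of the difference therefore depends on the floor and is no fold change. For Z-ISO this holds through the 3 of 6 psbs samples at 0. On that scale Z-ISO lay between -4.86 as deposited and -1.08 after loess, and CHL between -4.17 as deposited and -0.69 after loess. Without psbs replicates 1 and 2, and after quantile scaling, the differences were 1.10 for CHLM, -0.10 for AT1G74470, -1.78 for Z-ISO and -1.06 for CHL.

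**Figure D4:**
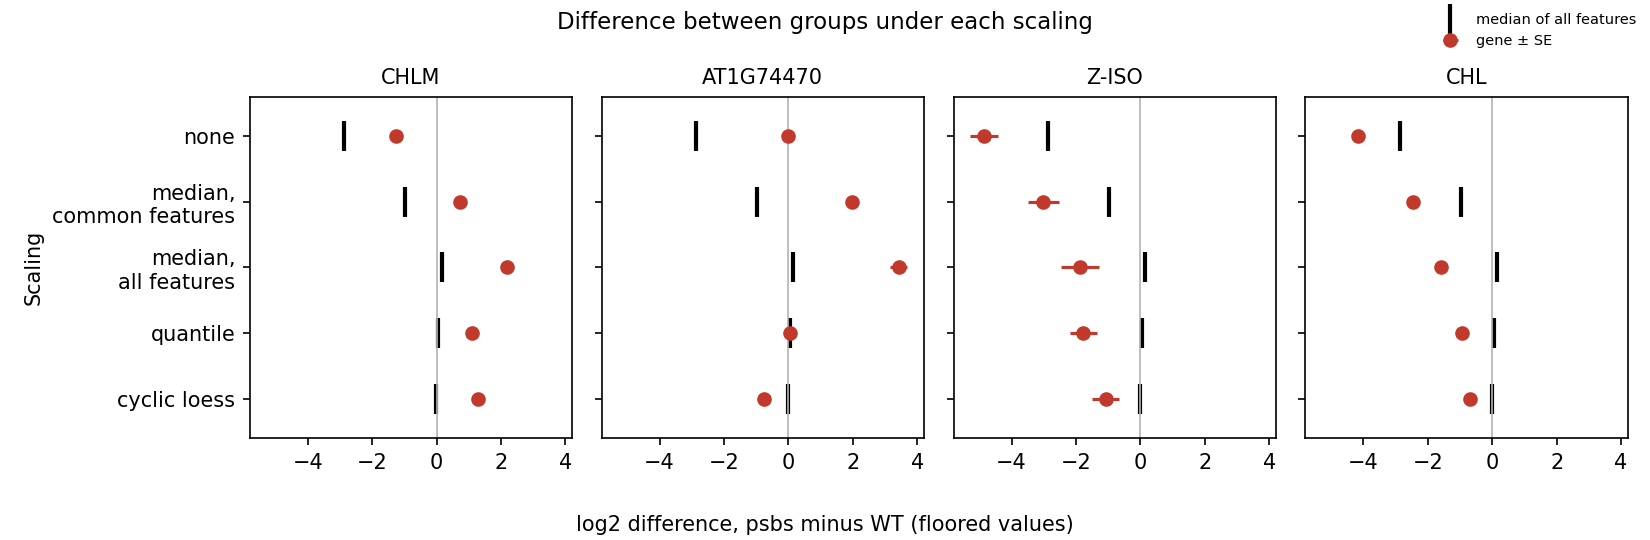
Difference of log2 values, psbs minus WT (horizontal, points with SE), for the 4 genes under 5 treatments of the values (vertical), with the median difference of all 3359 features as a black bar. CHLM changes sign between the deposited values (-1.26) and quantile scaling (1.10), AT1G74470 ranges from -0.76 to 3.43, and Z-ISO and CHL stay below 0, at sizes that depend on the floor.

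Few other genes of these pathways could be read. Of 101 genes listed for chlorophyll, carotenoids, isoprenoid precursors with tocopherol, and lipocalins with heat dissipation, 7 had a feature to themselves, 4 of them the genes above. The chlorophyll list had 3 of 46 genes on such features, the carotenoid list 1 of 21, the isoprenoid precursor and tocopherol list 1 of 17 and the lipocalin and heat dissipation list 2 of 19. The other 3 genes were tested with limma after quantile scaling, with Benjamini-Hochberg adjustment over all 3359 features: 1 was higher in psbs, 1 lower and 1 did not pass. Over all features 55.3% were called, 26.2% higher and 29.1% lower.

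HEMA3, a gene of the glutamyl-tRNA reductase family that acts at the start of tetrapyrrole synthesis, had intensities of 0.528, 0.518, 0.124, 0.0714, 0.138 and 0.0984 in psbs replicates 1 to 6, against 1.04 to 1.19 in WT samples, with a WT mean of 1.12 ± 0.0539 (SD, n = 6). Every psbs sample was dimmer than every WT sample, and psbs replicates 1 and 2 were well above the other psbs samples. After quantile scaling the difference was -0.63 ± 0.28 (SE) on the log2 scale and did not pass (limma adjusted p = 0.0804). Without psbs replicates 1 and 2 it was -0.999 and passed (limma adjusted p = 9.26e-05), as it did with all samples as deposited, at -2.64 (limma adjusted p = 0.000278). It did not pass after loess, at -1.12, or after centring on common features, at -0.67, and was at 0.80, the opposite sign, after centring on all features (limma adjusted p = 0.0854, 0.269 and 0.295). With consecutive numbers averaged or the replicate number as a block it did not pass either (limma adjusted p = 0.242 and 0.143).

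The listed tocopherol gene, AT1G78620, carries no name in the annotation used. It averaged 0.393 ± 0.0814 in psbs samples and 0.772 ± 0.0289 in WT samples (SD, n = 6 each). Like CHLM it had the lower intensity in psbs and the higher rank, 86.0% to 89.5% against 74.9% to 82.6% in WT samples. It was called higher after quantile scaling, by 0.68 ± 0.12 (SE; limma adjusted p = 0.000332), and also under the centrings on common and on all features, by 0.98 and 2.44 (limma adjusted p = 2.57e-05 and 9.4e-09). It was called lower as deposited, at -0.997 (limma adjusted p = 1.54e-05), and not called after loess, at 0.19 (limma adjusted p = 0.284). With consecutive numbers averaged after quantile scaling, AT1G78620 was called higher at a limma adjusted p of 0.0247.

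AT4G31530, a gene of the lipocalin and heat dissipation list that also has no name in the annotation, had intensities of 0.835, 0.878, 3.55, 3.48, 3.30 and 3.51 in psbs replicates 1 to 6, against 43.2 to 65.1 in WT samples, with a WT mean of 54.3 ± 8.69 (SD, n = 6). All psbs samples lay far below all WT samples, and psbs replicates 1 and 2 were the lowest. Without these 2 samples the difference after quantile scaling was -4.02, against -4.58 with all samples. It was lower under all 5 treatments, from -5.81 after loess to -1.19 after centring on all features, with a limma adjusted p of 2.71e-07 after quantile scaling. With consecutive numbers averaged after quantile scaling, the limma adjusted p was 0.00112.

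The features most like each gene were ranked by Pearson correlation of scaled log2 values over the 12 samples. Candidates were 575 or 576 features of a single gene, each above 0 in at least 1 sample of each group. All points share the scaling and the split into groups, and consecutive replicate numbers are not clearly independent, so the correlations are a description. CHLM was most like AT4G08280 (0.970), AT3G14890 (0.966) and AT1G32730 (0.960), and 45 features exceeded 0.9. As deposited, AT4G08280 and AT3G14890 overlapped between the groups and AT1G32730 was higher in every psbs sample. AT4G08280 averaged 0.282 ± 0.0435 in psbs and 0.303 ± 0.0380 in WT, AT3G14890 0.274 ± 0.0453 in psbs and 0.175 ± 0.0371 in WT, and AT1G32730 5.67 ± 0.967 in psbs and 1.61 ± 0.161 in WT (SD, n = 6 each). Within psbs their correlations with CHLM were 0.597, 0.735 and 0.490, and within WT 0.694, 0.563 and 0.497, lower than over both groups together.

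AT1G74470 had no close match. The highest correlations were 0.790 with AT2G38070, 0.779 with AT3G53580 and 0.771 with AT5G53620, and 0 features exceeded 0.9. Their WT means were 0.345 ± 0.0428, 0.200 ± 0.0884 and 0.330 ± 0.0450 (SD, n = 6 each), and 1, 4 and 1 of their psbs samples were listed at 0. Within psbs the correlations with AT1G74470 were 0.916, 0.854 and 0.944, and within WT they were 0.632, 0.609 and -0.24, so the likeness to AT5G53620 was not shared by the WT samples. AT1G74470 was brightest in psbs replicates 1 and 2, which stood apart across the array. Their part in the correlations within psbs was not tested.

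Z-ISO was most like AT4G40080 (0.954), AT1G73470 (0.949) and AT4G21820 (0.898), of which 2, 2 and 3 psbs samples were listed at 0 while their WT means were 0.475 ± 0.0200, 0.768 ± 0.118 and 0.332 ± 0.0510 (SD, n = 6 each). Within WT, where none was at 0, the correlations were 0.917, 0.888 and 0.381. CHL was most like AT1G51350 (0.958), AT2G41950 (0.944) and PSBW (0.940), a small subunit of photosystem II, and 25 features exceeded 0.9. PSBW was at 15.2 ± 1.43 in psbs and 45.4 ± 1.33 in WT, and AT1G51350 was at 0.1003 ± 0.0234 in psbs and 2.53 ± 0.229 in WT (SD, n = 6 each), so neither shared the 0 values of CHL in psbs. AT2G41950 did so in 5 of 6 psbs samples, with a WT mean of 0.717 ± 0.0699 (SD, n = 6). No candidate could do so in all 6, since features at 0 in every psbs sample were not among those ranked. With CHL constant in psbs, no correlation within that group could be formed. Within WT the correlations of CHL with AT1G51350, AT2G41950 and PSBW were 0.635, 0.396 and -0.049. The likeness to PSBW was therefore not shared by the WT samples.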

How the data were processed

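The authors deposited 1 linear intensity per feature and sample, on a scale that ends at 100. How arrays were scanned, corrected and scaled, and what a 0 means, is not stated in the labels or the table. Samples were grouped and numbered by title. Features were named from the platform annotation, with symbols updated through TAIR10.1 gene identifiers (690 of 692 matched). No coordinates are given, since no build is named. The members and gene lists were chosen with earlier results of these data known. Named genes are the 4 members, the 3 most correlated single-gene features for each, and listed pathway genes with a single-gene feature.

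The 12 columns were quantile normalized with exact 0 kept at 0. The 5th percentile of positive scaled values (0.0559) was the floor before log2, which understates changes of dim features. Differences were fitted with limma 3.58.1 in R 4.3.3 (lmFit, eBayes), without covariates, on the 3359 features above 0 in some sample, with Benjamini-Hochberg adjustment and a threshold of 0.05. Alternatives changed the scaling, the floor, the 0 values, the features tested, the replicate block and the samples used. Deviations from the group mean correlated across features at 0.0569 to 0.154 between psbs and WT samples of the same number. Samples of different number were not compared across groups, so these values cannot decide whether numbers are pairs. Numbers were not taken as pairs in the main fit. Within groups, consecutive numbers correlated at 0.0682 to 0.385 in psbs and 0.274 to 0.459 in WT. The number of arrays limits precision. Plots were made with matplotlib 3.10.9.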

Additional observations from a re-analysis of the deposited data

Results flagged for a closer look

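Each gene was examined within each group of 6 samples, on deposited intensities and on scaled log2 values, for a sample whose gap to the nearest of the others was large for the group's range. Of the 14 groups of values with any spread, 2 had such a sample; chance alone picks about 5% of groups. The deposited intensity of CHLM reached 0.257 in psbs replicate 4, while the other psbs samples lay between 0.138 and 0.170, and WT replicate 4 was also the highest of its group. The scaled log2 value of AT1G74470 was 1.96 in WT replicate 1, while the other WT samples lay between 1.47 and 1.62.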

How the results depend on the processing

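Values are log2 differences, psbs minus WT, after quantile scaling unless named. CHLM, at 1.10, was -1.26 without scaling, the reverse sign, 0.72 and 2.18 under centring on common and on all features, and 1.30 after loess. AT1G74470, at 0.06, was 1.97 and 3.43 under those centrings and -0.76 after loess. Z-ISO, at -1.77, was -4.86 without scaling, -3.02 after centring on common features and -0.77 with 0 values missing. CHL, at -0.92, was -4.17 without scaling, -2.47 and -1.60 under the centrings, -0.69 after loess and -0.29 with the floor at the 10th percentile. Z-ISO and CHL take the value of the floor wherever they are at 0, which loess then adjusts further. Other causes of these shifts were not tested. Centring on all features was chosen after seeing the data; with 0 values missing CHL, and with only features above 0 in all samples both CHL and Z-ISO, gave no value. Leaving out 1 sample at a time, CHLM ranged from 1.01 to 1.20, AT1G74470 from -0.01 to 0.13, Z-ISO from -2.02 to -1.57 and CHL from -0.99 to -0.77.

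limma called 1859 features. The count was 1102 with only the 1407 features above 0 in all samples, where fewer were tested, and 1734 to 1925 with 1 sample left out. It was 2701 without scaling, 1833 with the replicate number as a block and 1585 with consecutive numbers averaged. The share of calls that were higher in psbs was 47.4%, against 9.18% without scaling, 25.1% and 57.2% under centring on common and on all features, and 46.0% after loess. That share was 61.7% with 0 values missing and 64.5% with only features above 0 in all samples. With 1 sample of each group per number, the replicate block cannot move the 4 differences, so it says nothing about their stability. The pairing of numbers was not clear. The 6 same-number correlations were all positive, at 0.0569 to 0.154, but samples of different number were not compared across groups.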
